A study of Homo sapiens with 9 samples.

Results

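The SLC12 genes encode cation-chloride cotransporters, membrane proteins that carry chloride together with sodium, potassium or both. The 8 members examined were the rows of the deposited tables listed as SLC12A1, SLC12A2, SLC12A3, SLC12A4, SLC12A5, SLC12A7, SLC12A8 and SLC12A9, of 20030 genes in all. The family was chosen from earlier results of these libraries, in which SLC12A3 was lower in the oxaliplatin-resistant line. The values of SLC12A3 are therefore given as a description without a test, and the other 7 members belong to the family by name. RNA of 3 lines was sequenced in 3 libraries each, 9 libraries in all. MHCC97L is a human hepatocellular carcinoma line and received no drug. MHCC97L-OXA was derived from it and was stably resistant to 2 μmol/L oxaliplatin, a platinum drug that damages DNA. MHCC97L-SRC was likewise derived and was stably resistant to 4 μmol/L saracatinib, an inhibitor of Src family kinases. The labels give oxaliplatin as the treatment of the MHCC97L-OXA libraries and saracatinib as that of the MHCC97L-SRC libraries. Exposure to a drug and acquired resistance to it therefore cannot be told apart here. All were grown in DMEM with serum, and each resistant line is a single derived line. The labels do not say whether the 3 libraries of a line came from separate cultures. The published account calls the comparison of the saracatinib-resistant line with its parent a set of independent experiments, without saying what was repeated. The p-values measure the spread between these libraries, and what that spread holds is not known beyond this.

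Cotransporters that take up sodium with chloride (SLC12A1, SLC12A2 and SLC12A3) use the sodium gradient made by the Na,K-ATPase and load cells with chloride. Cotransporters of potassium with chloride (SLC12A4, SLC12A5 and SLC12A7) let both ions leave and take part in the recovery of a swollen cell. WNK kinases and their partner kinases SPAK (STK39) and OSR1 (OXSR1) activate the first group and inhibit the second by phosphorylation. SLC12A8 and SLC12A9 are distant members of the family whose substrates are less settled.

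Each library held from 16970486 to 18209213 counted reads, and a floor of 3 counts was taken as the smallest detectable amount. Floors cover counting error only. Levels within a gene are given relative to the library total, as CPM, and levels of different genes are compared only as the deposited FPKM, which also divides by transcript length. MHCC97L replicate 1 stood apart from the other libraries. Its Pearson correlation across 12232 genes with the other MHCC97L libraries was 0.859 and 0.916, against 0.956 between MHCC97L replicates 2 and 3. Its deviation from the mean of the 9 libraries went with the GC content of genes (Spearman's rho = -0.781 across genes, which are not independent). That of other libraries did so less and mostly in the opposite direction, with the largest rho at 0.699 in MHCC97L-SRC replicate 2 and 0.542 in MHCC97L-SRC replicate 1. A deviation from a shared mean is in part set by the other libraries. Results are given with and without MHCC97L replicate 1. Both comparisons with MHCC97L share the same 3 MHCC97L libraries.

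The labelled cell type was checked against marker genes. The hepatocyte genes ALB, AFP and TTR had 0 counts in all 9 libraries, and APOA1 and APOA2 reached at most 4 and 3 counts, and HNF4A had 2 to 13. The keratins KRT8 (28881 to 69315 counts) and KRT18 (22160 to 48660 counts) were abundant, and EPCAM had at most 2 counts. Of 3 leukocyte genes, PTPRC and CD3E had 0 counts in all 9 libraries. Of the endothelial genes PECAM1 had 15 to 39 counts and VWF 0 to 4. Of 6 genes of the distal renal tubule, where SLC12A1 and SLC12A3 are best known, none exceeded the floor in any library. The 3 fibroblast genes COL1A1, COL3A1 and DCN summed to 69.9 to 189 CPM. COL1A1 was the most abundant of them in 8 libraries, and DCN was in MHCC97L replicate 1. DCN had 163 to 446 counts in MHCC97L-SRC, 1082 to 1262 in MHCC97L-OXA and 729 to 2256 in MHCC97L. COL1A1 had 1022 to 1163 in MHCC97L-SRC, 1303 to 1491 in MHCC97L-OXA and 1083 to 1159 in MHCC97L. DCN, like SLC12A8, was lowest in MHCC97L-SRC, while the COL1A1 counts there overlapped those of MHCC97L, and the part of cells of this kind in the results was not tested.

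SLC12A8 was the most abundant of the 8 members in MHCC97L, and MHCC97L-SRC had far less of it. Its level was 376, 462 and 416 CPM in the MHCC97L libraries, 257, 263 and 273 CPM in MHCC97L-OXA and 51.7, 47.7 and 46.0 CPM in MHCC97L-SRC. The 3 lines did not overlap, with MHCC97L highest and MHCC97L-SRC lowest. SLC12A8 fell in MHCC97L-SRC relative to MHCC97L by a log2 fold change of -3.04 (SE 0.24; edgeR adjusted p = 0.00128). Without MHCC97L replicate 1 the value was -3.12 (SE 0.17; edgeR adjusted p = 5.23e-05). It was also lower in MHCC97L-SRC than in MHCC97L-OXA, by a log2 fold change of -2.39 (SE 0.12; edgeR adjusted p = 4.88e-06). In these bulk samples, fewer cells with a transcript and less of it per cell cannot be told apart. Between MHCC97L-OXA and MHCC97L the log2 fold change was -0.65 (SE 0.19; edgeR adjusted p = 0.166), which did not pass the threshold of 0.05. That difference passed without MHCC97L replicate 1 (log2 fold change -0.68, edgeR adjusted p = 0.00470) and after correction for GC content and length (edgeR adjusted p = 0.0167). Over 16 alternatives its adjusted p ranged from 0.00470 to 0.474.

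SLC12A7, the potassium-chloride cotransporter KCC4, moved the other way in MHCC97L-SRC. Its level was 75.7, 94.9 and 104 CPM in MHCC97L, 118, 124 and 116 CPM in MHCC97L-OXA and 336, 386 and 346 CPM in MHCC97L-SRC. Every MHCC97L-SRC library lay above all 6 others, and every MHCC97L-OXA library lay above those of MHCC97L. SLC12A7 rose in MHCC97L-SRC relative to MHCC97L by a log2 fold change of 2.03 (SE 0.25; edgeR adjusted p = 0.00921). The value was 1.91 (SE 0.18; edgeR adjusted p = 7.39e-04) without MHCC97L replicate 1. The call was lost without MHCC97L replicate 3 (log2 fold change 2.14, edgeR adjusted p = 0.0568), the highest of 16 alternatives, whose adjusted p ranged from 1.51e-08 to 0.0568. Relative to MHCC97L-OXA, SLC12A7 was higher in MHCC97L-SRC by a log2 fold change of 1.64 (SE 0.12; edgeR adjusted p = 5.88e-05). Between MHCC97L-OXA and MHCC97L the log2 fold change was 0.39 (SE 0.22; edgeR adjusted p = 0.286) and did not pass. It passed without MHCC97L replicate 1 (log2 fold change 0.32, edgeR adjusted p = 0.0252), and over 16 alternatives the adjusted p ranged from 0.0252 to 0.568.

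**Figure D1:**
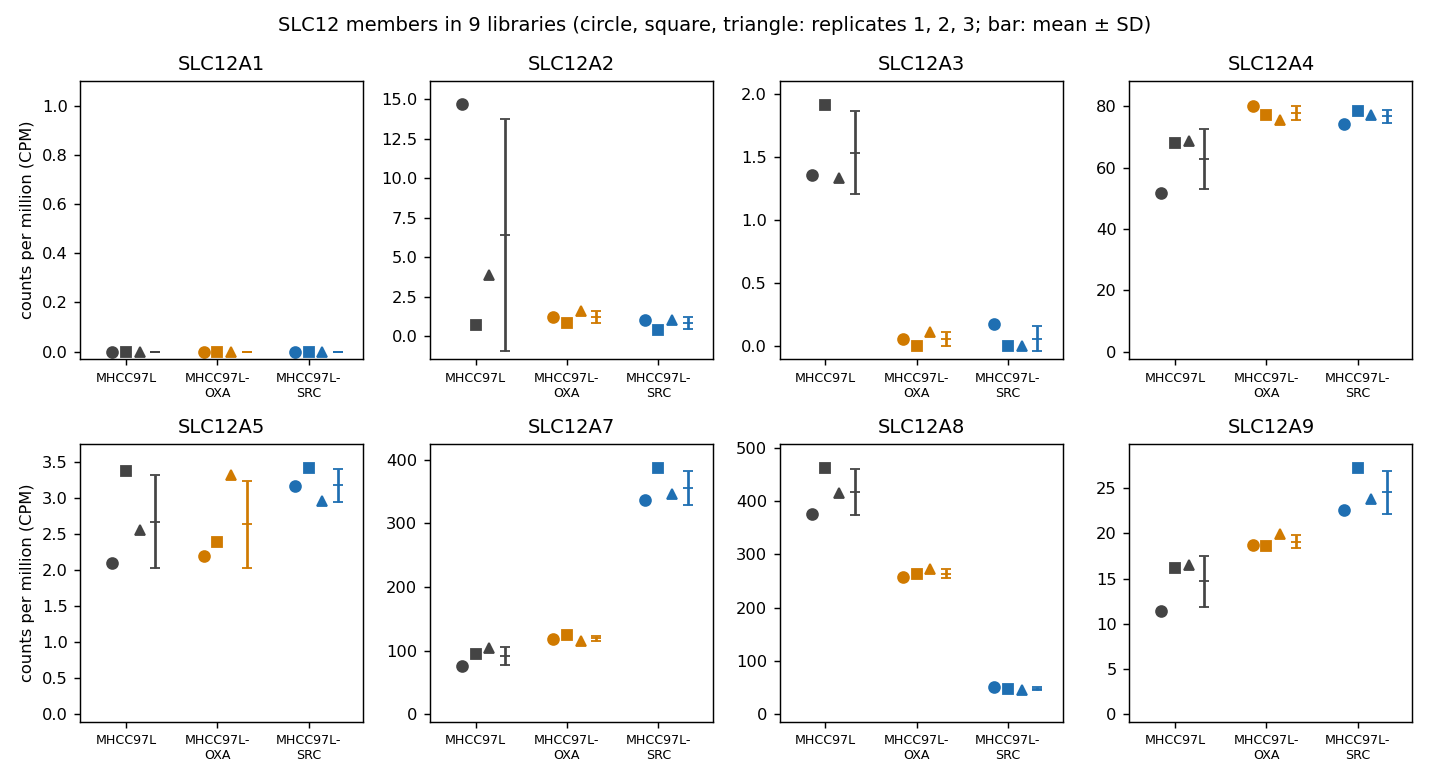
CPM of the 8 members in each library, by line, with circles, squares and triangles for replicates 1, 2 and 3 and a bar for the mean ± SD of 3 libraries. SLC12A8 is lowest and SLC12A7 highest in MHCC97L-SRC, and the high SLC12A2 value belongs to MHCC97L replicate 1.

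The starts of SLC12A8, SLC12A7 and SLC12A3 are shown because the comparisons of the members turn on these genes. GENCODE release 29 places SLC12A8 at chr3:125082636-125212864 on the - strand, SLC12A7 at chr5:1050376-1112035 on the - strand and SLC12A3 at chr16:56865207-56915850 on the + strand of GRCh38. RefSeq gives a window of 300 bases around a start, in GRCh38.p14, for all 8 members. The windows are chr3:125211350-125211649 on the - strand, chr5:1112014-1112313 on the - strand and chr16:56864957-56865256 on the + strand. The SLC12A8 window lies inside the gene as GENCODE places it and does not hold its annotated end on the upstream side, which the other 2 windows do, so what is said of its letters applies to the RefSeq start only. Capitals mark matches, on either strand, to the GC box GGGCGG or the TATA box word TATAAA.
SLC12A8: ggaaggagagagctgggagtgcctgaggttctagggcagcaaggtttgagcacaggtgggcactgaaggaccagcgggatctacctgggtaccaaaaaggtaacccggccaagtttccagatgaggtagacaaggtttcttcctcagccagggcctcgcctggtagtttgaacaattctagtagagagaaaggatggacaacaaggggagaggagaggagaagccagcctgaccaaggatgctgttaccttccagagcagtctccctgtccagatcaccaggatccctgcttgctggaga
SLC12A7: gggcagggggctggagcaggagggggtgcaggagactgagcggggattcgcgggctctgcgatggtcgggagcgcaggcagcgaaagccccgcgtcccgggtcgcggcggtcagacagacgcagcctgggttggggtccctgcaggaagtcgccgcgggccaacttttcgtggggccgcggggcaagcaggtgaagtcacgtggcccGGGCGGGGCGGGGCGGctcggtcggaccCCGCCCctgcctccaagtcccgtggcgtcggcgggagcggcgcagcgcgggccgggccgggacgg
SLC12A3: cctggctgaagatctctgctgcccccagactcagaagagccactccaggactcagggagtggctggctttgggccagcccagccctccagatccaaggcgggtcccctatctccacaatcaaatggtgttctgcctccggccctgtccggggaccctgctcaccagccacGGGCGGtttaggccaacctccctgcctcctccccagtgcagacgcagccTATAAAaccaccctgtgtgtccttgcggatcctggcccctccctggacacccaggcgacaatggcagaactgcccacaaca
The SLC12A7 window held 4 GC box matches, 3 of them overlapping in 1 run, and the SLC12A3 window 1 GC box and 1 TATA box match, while these letters are not in the SLC12A8 window. Of 35116 RefSeq windows of this length, 45.0% held a GC box word and 11.5% a TATA box word. GC content was 54.7% in the SLC12A8 window, 76.3% in that of SLC12A7 and 63.0% in that of SLC12A3, with a median of 58.7% over all windows. The AP-1 words TGACTCA or TGAGTCA and the TCF/LEF words CTTTGAT or CTTTGAA were searched likewise, are held by 4.95% and 6.86% of all windows, and are not in these 3 windows. A match is a description of the letters and not of binding.

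Per length, the most abundant member changed from SLC12A8 to SLC12A7 between the lines. In MHCC97L the order was SLC12A8 (101 ± 11.4 FPKM, mean ± SD, n = 3), SLC12A7 (11.6 ± 1.73), SLC12A4 (9.75 ± 1.19) and SLC12A9 (3.33 ± 0.697). In MHCC97L-OXA the same order held, with 62.8 ± 1.32 FPKM for SLC12A8, 14.5 ± 0.373 for SLC12A7, 12.1 ± 0.321 for SLC12A4 and 4.82 ± 0.0991 for SLC12A9. In MHCC97L-SRC SLC12A7 came first (44.4 ± 3.18 FPKM), then SLC12A8 (11.6 ± 0.397) and SLC12A4 (11.5 ± 0.334), which did not differ beyond their spread, then SLC12A9 (6.04 ± 0.757). In MHCC97L the ranges of SLC12A7 and SLC12A4 overlapped, but SLC12A7 was the higher within each library. Its FPKM was 9.62 against 8.38 in replicate 1, 12.2 against 10.3 in replicate 2 and 12.9 against 10.6 in replicate 3. SLC12A2, SLC12A3 and SLC12A5 stayed under 1 FPKM on average in every line. SLC12A8 made up 79.8% ± 1.25 (SD, n = 3) of the summed FPKM of the 8 members in MHCC97L, 66.5% ± 0.665 in MHCC97L-OXA and 15.7% ± 1.12 in MHCC97L-SRC. The share of SLC12A7 was 9.14% ± 0.805, 15.4% ± 0.405 and 60.1% ± 1.06. These shares do not depend on library depth. The sum was 126 ± 13.8 FPKM in MHCC97L, 94.5 ± 1.13 in MHCC97L-OXA and 73.7 ± 4.08 in MHCC97L-SRC, without overlap between lines. The ratio of SLC12A7 to SLC12A8 within a library, looked at after the values were seen and not tested, was 0.107 to 0.128 in MHCC97L, 0.223 to 0.239 in MHCC97L-OXA and 3.52 to 4.20 in MHCC97L-SRC.

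**Figure D2:**
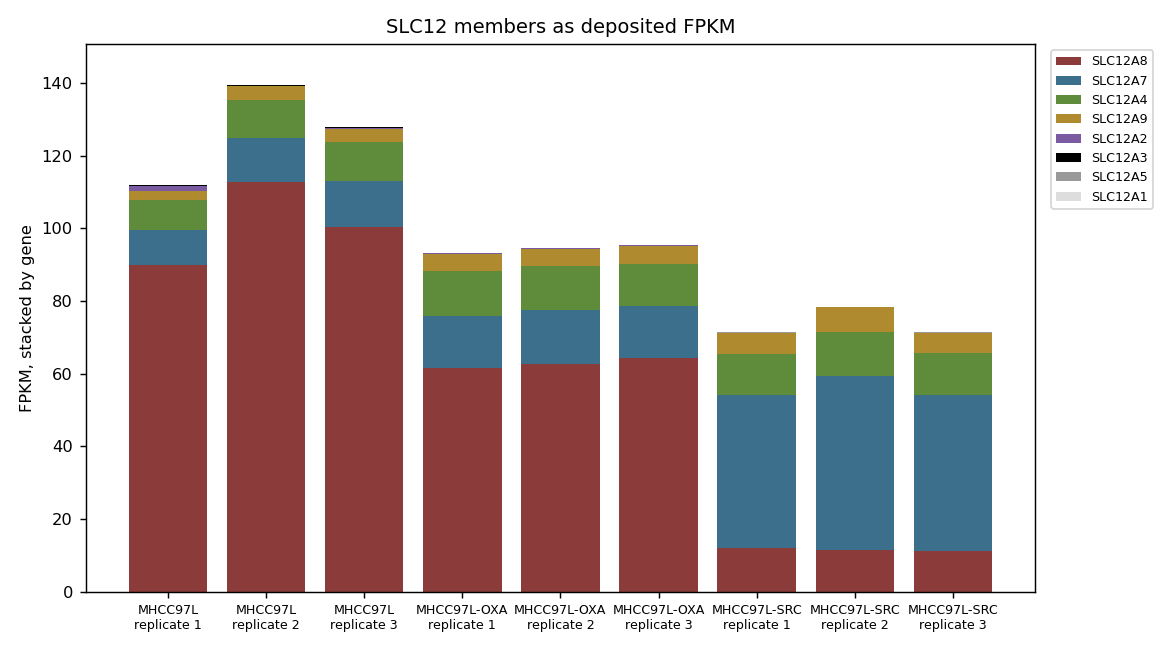
Deposited FPKM of the 8 members, stacked by gene, in each of the 9 libraries. SLC12A8 fills most of each bar in MHCC97L and MHCC97L-OXA, and SLC12A7 fills most of it in MHCC97L-SRC.

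Among the sodium-dependent members, SLC12A3, the thiazide-sensitive sodium-chloride cotransporter, was low in MHCC97L and lower still in both resistant lines. It had 24, 34 and 24 counts in the MHCC97L libraries, 1, 0 and 2 in MHCC97L-OXA and 3, 0 and 0 in MHCC97L-SRC. All 6 resistant libraries were at or under the floor and all 3 MHCC97L libraries were above it. Against a floor of 3 counts per library, the mean CPM was at least 9.20-fold lower in MHCC97L-OXA and at least 8.86-fold lower in MHCC97L-SRC. Leaving out MHCC97L replicate 1 gave bounds of 9.73 and 9.37. SLC12A3 was selected on its level in MHCC97L-OXA against MHCC97L, so no p is given, and between the resistant lines it did not pass the filter on low counts.

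SLC12A2 (NKCC1), the sodium-potassium-chloride cotransporter of most epithelia, changed with the MHCC97L libraries that entered the fit. It had 259, 12 and 70 counts in the MHCC97L libraries, 22, 15 and 28 in MHCC97L-OXA and 18, 7 and 18 in MHCC97L-SRC. MHCC97L replicate 1 was far above the rest, and MHCC97L replicate 2 lay among the resistant libraries. The log2 fold change relative to MHCC97L was -2.83 (SE 0.95; edgeR adjusted p = 0.116) in MHCC97L-SRC and -2.32 (SE 0.92; edgeR adjusted p = 0.209) in MHCC97L-OXA, and neither passed. Without MHCC97L replicate 1 the log2 fold changes were -1.39 and -0.85 (edgeR adjusted p = 0.278 and 0.461). Without MHCC97L replicate 2 both passed, at -3.29 and -2.76 (edgeR adjusted p = 0.00274 and 0.0141). In MHCC97L-SRC it also passed by DESeq2 (adjusted p = 0.0198) and in the fit of all 9 libraries (edgeR adjusted p = 0.0496). In all it passed in 4.0 of 15.0 alternatives in MHCC97L-SRC and 1.0 of 16.0 in MHCC97L-OXA. Over the alternatives the adjusted p ranged from 0.0141 to 0.474 in MHCC97L-OXA. For MHCC97L-SRC that range was 0.00274 to 0.304. The longest SLC12A2 transcript has a GC content of 41.2%, the lowest of the 7 members with a count, and correction for GC content and length gave -1.28 for MHCC97L-SRC (edgeR adjusted p = 0.180) and -1.02 in MHCC97L-OXA (edgeR adjusted p = 0.247). SLC12A1 (NKCC2), the loop diuretic target of the kidney, had 0 counts in all 9 libraries, which allows up to 3 counts per library.

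The remaining potassium-chloride cotransporters and SLC12A9 did not pass in any of the 3 comparisons. SLC12A4 (KCC1), the widely expressed member, had 911 to 1235 counts in MHCC97L, 1345 to 1461 in MHCC97L-OXA and 1286 to 1359 in MHCC97L-SRC. Its log2 fold change relative to MHCC97L was 0.31 (SE 0.23; edgeR adjusted p = 0.395) in MHCC97L-OXA and 0.35 (SE 0.25; edgeR adjusted p = 0.363) in MHCC97L-SRC. SLC12A5 (KCC2), known from neurons, had 37 to 60 counts over the 9 libraries, and its lines overlapped. SLC12A9 had 201 to 296 counts in MHCC97L, 334 to 353 in MHCC97L-OXA and 391 to 461 in MHCC97L-SRC, so that the lines did not overlap. Its log2 fold change was 0.81 (SE 0.35; edgeR adjusted p = 0.170) in MHCC97L-SRC and 0.38 (SE 0.32; edgeR adjusted p = 0.465) in MHCC97L-OXA relative to MHCC97L. In GENCODE, exons of SLC12A4 share 336 bases with LCAT on the same strand, those of SLC12A9 share 69 bases with EPHB4 on the opposite strand, those of SLC12A8 share 48 bases with the small RNA pseudogene RNU6-230P and those of SLC12A5 share 197 bases with the antisense gene SLC12A5-AS1. Whether the counting used strand is not given in the sources used here, so reads there could not be assigned to 1 gene.

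**Figure D3:**
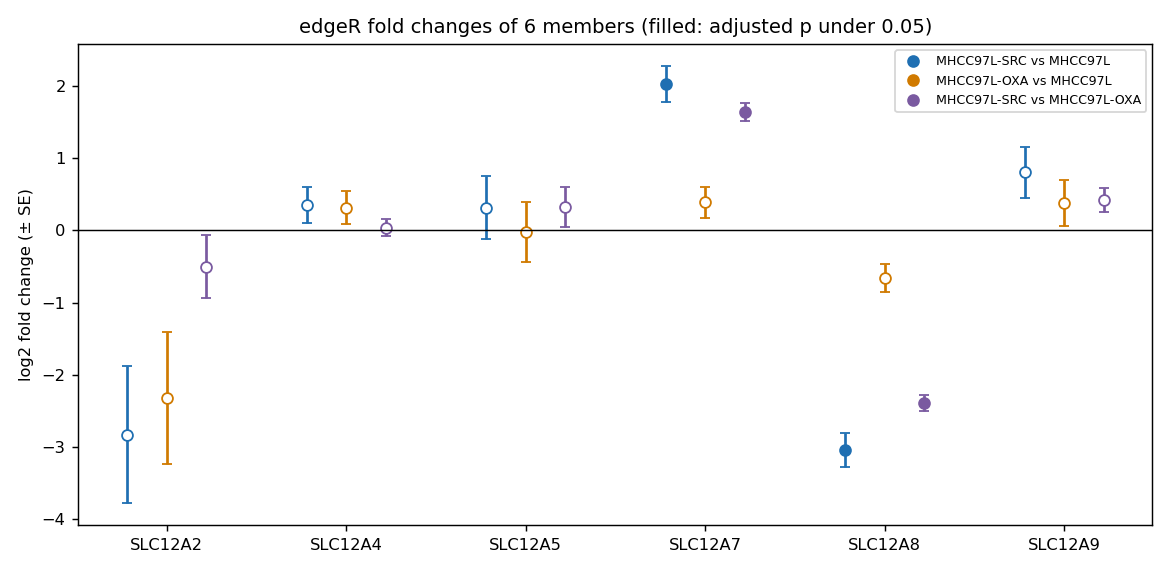
log2 fold change ± SE of 6 members in each comparison, with filled points at an edgeR adjusted p under 0.05. SLC12A7 and SLC12A8 have filled points in both comparisons of MHCC97L-SRC, on opposite sides of 0, and SLC12A3 is left out because it was selected on its level.

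Counted together, 7 members passed the filter on low counts in each comparison with MHCC97L, and 6 did between the resistant lines. SLC12A3 was selected on its level and is left out of the counts that follow, which leaves 6 members in each comparison. Relative to MHCC97L, 2 of 6 were called in MHCC97L-SRC (SLC12A7 and SLC12A8) where 2.13% of 12037 genes were called, and 0 of 6 in MHCC97L-OXA where 0.953% of 12064 genes were called. Between MHCC97L-SRC and MHCC97L-OXA 2 of 6 were called (SLC12A7 and SLC12A8) against 4.64% of 11994 genes. The number of all genes called depended on single libraries. In MHCC97L-SRC it was 256, and 672, 3419 and 22 without MHCC97L replicate 1, 2 or 3. In MHCC97L-OXA it was 115, and 2251, 2705 and 2 likewise. Without MHCC97L-SRC replicate 1, 2 or 3 it was 69, 47 and 27 against MHCC97L and 208, 1033 and 1617 against MHCC97L-OXA, where all libraries gave 556. Without MHCC97L-OXA replicate 1, 2 or 3 it was 2, 2 and 2 against MHCC97L and 243, 167 and 231 between the resistant lines. Of the 6 members, 2, 3 and 1 were called in MHCC97L-SRC relative to MHCC97L without MHCC97L replicate 1, 2 or 3, where 5.52%, 27.8% and 0.18% of all genes tested were called. In MHCC97L-OXA it was 2, 1 and 0 of 6, where 18.5%, 22.1% and 0.0164% of all genes tested were called. Without any 1 MHCC97L-SRC library 2 were called against MHCC97L, and without any 1 MHCC97L-OXA library 0. The median log2 fold change of the 6 members was 0.33 in MHCC97L-SRC, 0.15 in MHCC97L-OXA and 0.18 between the resistant lines, against -0.16, -0.19 and -0.02 over all genes tested. It was 0.19 and 0.06 relative to MHCC97L without MHCC97L replicate 1, and 0.06, 0.00808 and 0.06 in the 3 comparisons after correction for GC content and length.

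**Figure D4:**
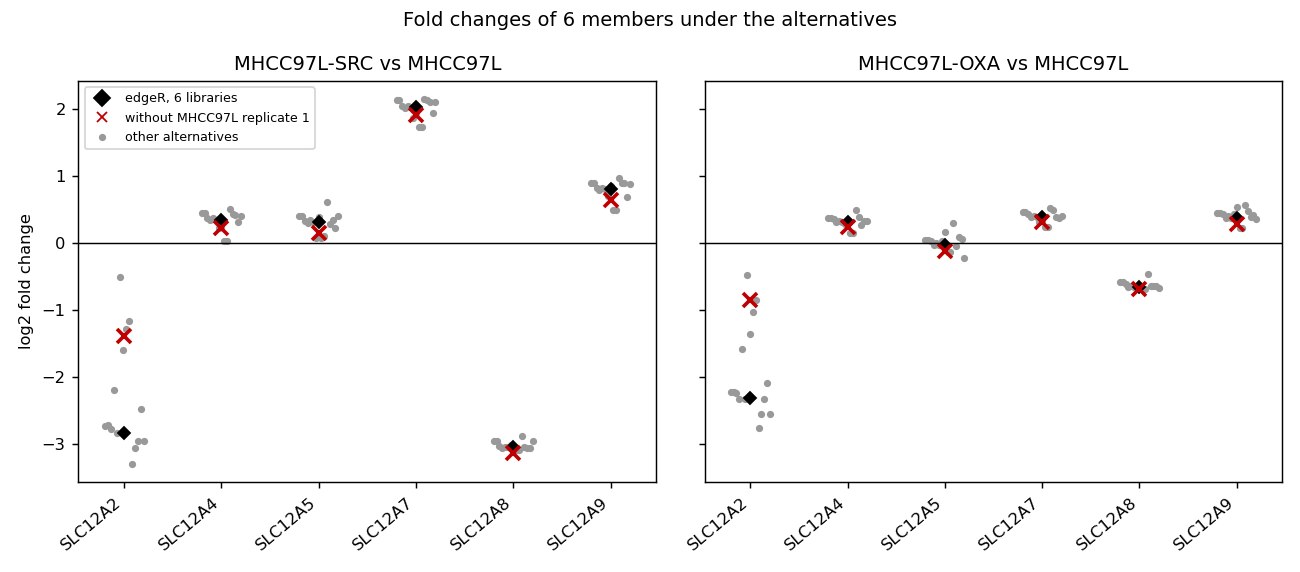
log2 fold change of 6 members relative to MHCC97L under the fit of 6 libraries (diamonds), without MHCC97L replicate 1 (crosses) and under the other alternatives (dots). SLC12A7 and SLC12A8 move little, and SLC12A2 moves toward 0 without MHCC97L replicate 1.

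In the fit of 6 libraries, edgeR called none of the genes that regulate or supply the cotransporters. The counts below are of that fit unless stated. Other fits that kept all libraries did call genes of the lists. After correction for GC content and length it was 1 of 33 in MHCC97L-SRC, 1 of 33 in MHCC97L-OXA and 3 of 33 between the resistant lines. In MHCC97L-SRC the fit of 9 libraries called 2 of 34 and the replicate block 1 of 33. These fits also called more of all genes, or as few, as given under the processing. Nothing about the lists is therefore read from these counts. Of the WNK-SPAK regulators 12 of 14 were tested in each comparison, and edgeR called 0 in each. At an unadjusted p under 0.05 the list held 3 genes in MHCC97L-SRC, 1 in MHCC97L-OXA and 1 between the resistant lines, where 29.5%, 22.4% and 19.5% of all genes tested did so. The median log2 fold change of the list was -0.78, -0.62 and -0.19. Its members have a median GC content of 44.6%, against 49.2% over the genes tested in MHCC97L-SRC. Without MHCC97L replicate 1 the median was -0.18 in MHCC97L-SRC and 0.04 in MHCC97L-OXA. SGK1, a kinase induced by steroids and by cell shrinkage, was the most abundant member at 23.8 ± 18.2 FPKM in MHCC97L, 22.4 ± 4.60 in MHCC97L-OXA and 18.4 ± 7.71 in MHCC97L-SRC (mean ± SD, n = 3). WNK1, the chloride-sensing kinase at the head of the cascade, measured 15.9 ± 11.1 FPKM in MHCC97L, 9.94 ± 0.992 in MHCC97L-OXA and 8.20 ± 0.475 in MHCC97L-SRC. In both genes the highest value in MHCC97L was that of replicate 1, and without it the MHCC97L mean was 13.3 FPKM for SGK1 and 9.60 for WNK1. SGK1 was then called higher in MHCC97L-OXA, at a log2 fold change of 0.79 (SE 0.17; edgeR adjusted p = 0.0278), where 18.5% of all genes tested were called. In MHCC97L-SRC it was 0.51 (SE 0.31; edgeR adjusted p = 0.354).

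Of the Na,K-ATPase list, 7 of 9 genes were tested in the comparisons with MHCC97L-SRC and 6 in MHCC97L-OXA against MHCC97L, and edgeR called 0 in each. The genes at an unadjusted p under 0.05 numbered 2, 1 and 3 in MHCC97L-SRC, in MHCC97L-OXA and between the resistant lines. Over all genes tested, 29.5%, 22.4% and 19.5% did so. The log2 fold change was above 0 for 6 of 7, 2 of 6 and 5 of 7 genes tested. The median over all genes tested was -0.16, -0.19 and -0.02. The share of all genes above 0 was not computed, so no direction of the list is read from these counts. ATP1B3, a subunit that brings the pump to the membrane, measured 79.2 ± 47.1 FPKM in MHCC97L, 65.7 ± 5.92 in MHCC97L-OXA and 75.9 ± 27.0 in MHCC97L-SRC. Its mean in MHCC97L was 52.1 FPKM without MHCC97L replicate 1, and its log2 fold change was then 0.43 (SE 0.11; edgeR adjusted p = 0.0398) in MHCC97L-OXA and 0.61 (SE 0.26; edgeR adjusted p = 0.202) in MHCC97L-SRC. Of the 17 chloride channel genes, 14, 15 and 14 were tested, and edgeR called 0 in each comparison. At an unadjusted p under 0.05 there were 5, 2 and 4, with median log2 fold changes of -0.21, -0.30 and -0.08. The shares and medians of all genes tested were those given above for the Na,K-ATPase list. CLCN7, the chloride-proton exchanger of lysosomes, measured 20.3 ± 2.56 FPKM in MHCC97L, 23.6 ± 1.58 in MHCC97L-OXA and 26.8 ± 2.17 in MHCC97L-SRC. LRRC8A, the required subunit of the volume-regulated anion channel, measured 20.6 ± 4.27 FPKM in MHCC97L, 16.5 ± 0.975 in MHCC97L-OXA and 16.6 ± 0.910 in MHCC97L-SRC. The log2 fold change of LRRC8A in MHCC97L-OXA was -0.42 (SE 0.07; edgeR adjusted p = 0.0148) without MHCC97L replicate 1, and -0.39 (SE 0.16; edgeR adjusted p = 0.183) in MHCC97L-SRC. DESeq2 called CLCN3 and LRRC8D in MHCC97L-SRC and no other gene of the 3 lists in any comparison, where it called 17.6%, 7.4% and 7% of all genes tested. Limma-trend on log2(FPKM + 1) called 0 genes of the lists, where it called 1.9%, 2.09% and 4.06% of all genes tested. Without MHCC97L replicate 2, edgeR called 12 of 33 genes of the lists in MHCC97L-SRC and 9 of 33 in MHCC97L-OXA, where it called 27.8% and 22.1% of all genes tested. It called 0 of 34 and 4 of 33 without MHCC97L replicate 1, where it called 5.52% and 18.5% of all genes tested.

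The genes most like a member over the 9 libraries were taken by Pearson's r of log2 CPM among 12232 genes. The libraries of a line are not independent points for this, since they share their line. For SLC12A8 these included SAMD11 (r = 0.993; 0.997 without MHCC97L replicate 1) and GLP2R (r = 0.989; 0.993 without MHCC97L replicate 1). GLP2R encodes a peptide hormone receptor. For SLC12A7 they were INPP5J (r = 0.989; 0.987 without that library), PRAG1 (r = 0.988; 0.993 without that library) and MLXIPL (r = 0.987; 0.984 without that library). MLXIPL encodes the glucose-responsive transcription factor ChREBP. For SLC12A3 they were FAHD1 (r = 0.967; 0.960 without that library), UBE2D4 (r = 0.966; 0.974 without that library) and CRISPLD2 (r = 0.963; 0.957 without that library). UBE2D4 encodes a ubiquitin-conjugating enzyme. SLC12A3 was selected on its level, and its resistant libraries were all at or under the floor. Its r therefore largely restates the difference between MHCC97L and the resistant lines, and nothing more is read from it.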

How the data were processed

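RNA of 9 libraries, 3 per line, was sequenced from poly(A)-selected, stranded libraries. The authors deposited the reads counted on each of 20030 genes as raw counts, and FPKM values of the same genes, in which 245 to 297 genes of a library were at 0 despite a count. The submitters' processing notes name Trimmomatic 0.36, HISAT2 2.2.1.0 and the build GRCh38.p12, and the counting program is not given in the sources used here. Libraries were grouped by the treatment in their label. Totals were 16970486 to 18209213 counts per library. Pairs of lines were compared on the counts of their 6 libraries with the quasi-likelihood test of edgeR, fitted over the whole table after filterByExpr (minimum count 10) and TMM normalization, with Benjamini-Hochberg adjustment and a threshold of 0.05. The SE of a log2 fold change was taken as its size over the root of the F statistic. Log2 CPM used a prior count of 2. The members and lists were chosen with earlier results of these data known. All members were named, and from each pathway list the genes called and the 2 of highest mean FPKM, and for SLC12A3 and each called member the 3 genes of highest r. Alternatives were DESeq2, its size factors in edgeR, no filter, at least 10 counts in every library, a replicate block, 1 fit of 9 libraries, limma-trend on log2(FPKM + 1) and log2(FPKM + 0.1), a correction for GC content and length (splines of 5 degrees of freedom, GENCODE 29) alone and with the block, and leaving out each library. Without MHCC97L replicate 1, r was recomputed after seeing the data, as were ratios on counts. The fit was also run on simulated counts, and no result here rests on that run. Fits ran in R 4.3.3 with DESeq2 1.42.0, edgeR 4.0.16 and limma 3.58.1, and tables and figures were made in Python 3.11.15 with matplotlib 3.10.9 and pandas 2.3.3.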

Additional observations from a re-analysis of the deposited data

Results flagged for a closer look

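The change of SLC12A7 relative to MHCC97L differed between the resistant lines by 1.64 on the log2 scale (MHCC97L-SRC minus MHCC97L-OXA, edgeR adjusted p = 5.88e-05), in the test of the resistant lines against each other. The change of SLC12A8 differed by -2.39 on the same scale (edgeR adjusted p = 4.88e-06). In the fit of all 9 libraries the adjusted p was 0.00461 for SLC12A7 and 2.59e-04 for SLC12A8. The causes of both differences were not tested.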

How the results depend on the processing

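SLC12A8 stayed called in all 16 alternatives of both comparisons of MHCC97L-SRC, and SLC12A7 in all but the fit without MHCC97L replicate 3 against MHCC97L. The number of genes called in MHCC97L-SRC against MHCC97L was 256, and 2114 by DESeq2, 702 without a filter, 162 with at least 10 counts in every library, 1956 in the fit of 9 libraries, 1279 after GC and length correction and 22 to 3419 leaving out 1 library. In MHCC97L-OXA against MHCC97L it was 115, and 893 by DESeq2, 495 in the fit of 9 libraries, 252 and 256 by limma-trend with a pseudocount of 1 and 0.1, 1556 after the correction, 610 with the correction and the replicate block and 2 to 2705 leaving out 1 library, being 2 without MHCC97L replicate 3 or any 1 MHCC97L-OXA library. Between the resistant lines it was 556, and 839 by DESeq2, 86 in the fit of 9 libraries, 1156 after the correction and 167 to 1617 leaving out 1 library. Of the members apart from SLC12A3, 2 were called in MHCC97L-SRC, with 1 to 3 leaving out 1 library, and 0 in MHCC97L-OXA, with 1 after the correction with or without the replicate block and 0 to 2 leaving out 1 library. The count fixed before the fits also holds SLC12A3, which was selected on its level, so nothing is read from it. It was 3 in MHCC97L-SRC, with 1 to 4 leaving out 1 library. In MHCC97L-OXA it was 1, and 0 with at least 10 counts in every library, 0 by limma-trend with a pseudocount of 1, 2 after the correction with or without the replicate block, and 0 to 3 leaving out 1 library. Correlations between same-numbered libraries, of their deviations from the mean of their line, ranged from -0.65 to 0.44. With 3 libraries per line these deviations depend on each other, so they cannot tell whether the replicate numbers pair the libraries. With the number as a replicate block, 988, 92 and 406 genes were called in the 3 comparisons. The block also called SLC12A2 in MHCC97L-SRC, at -2.18 (adjusted p = 0.0438), and changed no other call of a member. The log2 fold change of SLC12A5 in MHCC97L-OXA, -0.02, was 0.0492 by DESeq2, 0.0484 with its size factors, 0.0265 without a filter, 0.0346 and 0.173 by limma-trend and -0.218 to 0.306 leaving out 1 library. That of SLC12A4 between the resistant lines, 0.04, was -0.0632 and -0.0680 by limma-trend, -0.104 after the correction, -0.104 with the replicate block added and -0.0461 to 0.0873 leaving out 1 library. The causes were not tested. Depth limits SLC12A3, whose resistant libraries were all at or under 3 counts.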
